A study of Homo sapiens with 60 samples.

Results

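The proteasome genes described here were the 48 genes of the count table whose symbols run from PSMA1 to PSMG4, that is every symbol made of PSM, a letter from A to G and a number, out of 60675 genes. They comprised 8 genes of the alpha ring, 4 of the structural beta subunits, 3 of the catalytic beta subunits, 4 of the inducible and tissue-specific beta subunits, 6 of the 19S ATPases, 11 of the other 19S subunits, 7 of the assembly chaperones and 5 of the activators and inhibitors. Of the 48 genes, 46 passed the filter on low counts. The other 2, the testis-associated PSMA8 and the thymus-associated PSMB11, were at or near 0 counts in every library and were not tested.

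The cells were SW1783, an established human astrocytoma line, kept for 24 h with DMSO vehicle or with an ethanol extract of a medicinal herb or a herbal formula. The sample labels give the vehicle as 0.1% DMSO, whereas the design text of the series gives 2%. Coptidis Rhizoma was given at 14, 2.8 and 0.56 µg/mL and Bupleuri Radix at 210, 42 and 8.4 µg/mL. The other 4 herbs and both formulas were given at 500, 100 and 20 µg/mL. These herbs were Aconiti Lateralis Radix Preparata, Zizyphi Fructus, Cimicifugae Rhizoma and Citri Unshius Pericarpium, and the formulas were Banhasasim-tang and Yijung-tang. The 3 levels are called high, medium and low here.

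The 26S proteasome degrades proteins tagged with ubiquitin. Its barrel-shaped core is built of stacked rings of alpha and beta subunits, with the proteolytic sites inside on PSMB5, PSMB6 and PSMB7, and a 19S cap of ATPases and non-ATPase subunits receives, unfolds and feeds in the substrates. Interferon signalling exchanges the proteolytic subunits for PSMB8, PSMB9 and PSMB10 and raises the PSME1 and PSME2 activator, while the transcription factor NFE2L1 raises subunit genes when proteasome capacity falls. In astrocytes and gliomas, as in other cells, the constitutive subunits are abundantly and steadily expressed.

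Of the 60 libraries, 58 were described here and 54, in 21 groups of 2 or 3, entered the tests. Library totals ran from 15996157 to 30990264 counts. Aconiti high replicate 1 and Yijung low replicate 1 diverged from their groups and were left out, and Yijung low and all 3 Banhasasim doses then had 1 library each and no test. Library set labels separate the vehicle from every extract, so set and treatment cannot be told apart in any comparison with the vehicle. The high, medium and low doses of 1 extract shared a set, and these comparisons lead the results. Nothing in the labels ties replicates to cultures of their own, so p-values rest on the spread between these libraries, which may be technical. Levels are given as CPM, the reads of a gene relative to the library size normalised by TMM, and are not corrected for gene length unless TPM is named. In bulk RNA, fewer cells of a type and less RNA per cell cannot be told apart. Among astrocyte markers, SOX9 (73.3), SLC1A3 (33.6) and VIM (4438) were present in vehicle cells, whereas GFAP, AQP4, S100B and ALDH1L1 lay between 0.016 and 0.19. Of the markers of other cell types, 2 of 5 for microglia and leukocytes (CD68 at 134 and PTPRC at 13.4), 2 of 5 for neurons (SNAP25 at 32.2 and SYT1 at 31.2), 1 of 4 for oligodendrocytes (MBP at 5.89), 1 of 4 for endothelium (KDR at 26.6) and 2 of 4 for epithelium (KRT18 at 240.4 and KRT8 at 19.2) were above 1 CPM in the vehicle. MOG, AIF1 and CDH5 were at 0 there.

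A further library needs naming before the results. Bupleuri low replicate 3 was above both other low-dose Bupleuri libraries for 41 of the 46 tested proteasome genes, by a median ratio of 1.12, and it was the highest of the 58 libraries for 16 of them. The squared differences of its counts from those of replicates 1 and 2 were, at the median, 5.70 and 7.56 times those of counting noise. Between replicates 1 and 2 they were 2.18 times. Calls on Bupleuri that involve the low dose are therefore given with and without it.

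Reads near overlapping genes limit some members. In the GENCODE v29 annotation, 23 of the 48 genes share exon bases with another gene, and the strand setting of the counting is unknown here. PSMB8 (chromosome 6, 32840717 to 32844703, minus strand, GRCh38) and PSMB9 (32844136 to 32859585, plus strand) share 139 exon bases. PSMG4 shares 1388 exon bases with SLC22A23, and PSMA2 shares 781 with an unnamed readthrough gene. The ATPase genes PSMC1 and PSMC5 share 4671 with NRDE2 and 874 with FTSJ3. PSMB10 shares 644 with an unnamed gene on the same strand, and PSMB8 shares 618 with PSMB8-AS1. The values of all 23 genes are uncertain to the extent of their overlaps. The 44 annotated proteasome pseudogenes in the table took 0.288% as many counts as the members, with the largest ratio to a parent, 8.44%, for PSMC1P1 and PSMC1.

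Per length, the constitutive catalytic genes stood well above their inducible counterparts in vehicle cells. As TPM (the level per length, scaled to the library) over the union of exons (n = 3), PSMB7 was at 383 ± 13.2 (SD), PSMB6 at 341 ± 5.22 and PSMB5 at 279 ± 8.01. PSMB8, PSMB10 and PSMB9 were at 48.2 ± 4.77, 43.5 ± 1.89 and 21.5 ± 0.744. The lowest constitutive gene was thus above the highest inducible gene in level per length. The same held with the longest transcript as the length, where the constitutive genes ran from 283 to 519 and the inducible ones from 18.4 to 49.2. PSMD2, a large scaffold subunit of the 19S base, had the highest level per length of the members, at 651 ± 11.7, ahead of PSMA7 of the alpha ring at 499 ± 29.9 and PSMB3, a structural beta subunit, at 487 ± 8.97. PSMG4, an assembly chaperone, had the lowest of the 46, at 7.58 ± 0.523. The 19S ATPases ranged from 49.4 ± 2.80 for PSMC6 to 222 ± 10.03 for PSMC2. With the longest transcript as the length, PSMC6 was still the lowest ATPase, at 93.5, but PSMC3 (231) stood above PSMC2 (192), and PSMG4 was at 12.8, again the lowest of the 46. Among the activators PSME1 (193 ± 3.85) stood above PSME3 (157 ± 0.935), PSME2 (144 ± 2.73) and PSME4 (53.95 ± 1.58).

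Across all treatments, the ratio of the highest to the lowest of the 58 libraries had a median of 1.42 over the 46 genes. Its extremes were 1.19 and 1.95. The ratio was not computed for all genes, so it does not show the proteasome genes to be steadier than others. Summed over the members, the level ran from 5455 CPM in Cimicifugae medium replicate 3 to 6631 in Bupleuri low replicate 3, with a median of 5958. These genes were also more precisely measured than most: their median level was 122 CPM against 15.2 for all 17680 genes tested, and in the Coptidis comparison of high with low dose their median standard error was 0.061 on the log2 scale against 0.101 for all genes. A larger share of members than of all genes can therefore pass at the same size of change.

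The first question was how the high dose of each extract compared with its own low dose (for Yijung-tang, the medium dose). A gene was called where the Benjamini-Hochberg adjusted p of edgeR's quasi-likelihood test was below 0.05. For Coptidis, 11 of the 46 genes were higher and 16 lower, against 33.2% of all genes higher and 32.4% lower. For Bupleuri, 5 were higher and 12 lower, against 20.6% and 18.6% of all genes. For Cimicifugae, 0 were higher and 12 lower, against 4.88% and 5.81%. Citri gave 0 higher and 3 lower (all genes 6.44% and 7.34%), Zizyphi 1 higher and 0 lower (3.12% and 4.28%), Aconiti 0 higher and 1 lower (4.28% and 5.25%) and Yijung-tang 0 higher and 2 lower (4.11% and 5.05%). By DESeq2 the counts of 0 were also 0, and by an unadjusted p under 0.05 they were 0 for Cimicifugae, Aconiti and Yijung-tang and 3 for Citri among genes higher, and 2 for Zizyphi among genes lower. Among lower genes, the share of members was above that of all genes for Cimicifugae (26.1%), Bupleuri (26.1%) and, by little, Coptidis (34.8%), and below it for the other extracts. Without Bupleuri low replicate 3 the Bupleuri order turned round, with 8.7% of members lower (4 of 46) against 15.7% of all genes, and 13% higher against 17.5%. The members' median log2 difference was -0.09 for Cimicifugae, -0.07 for Bupleuri and -0.05 for Coptidis, where the median of all genes was -0.02 for Coptidis and nearer to 0 for the other two.

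**Figure D1:**
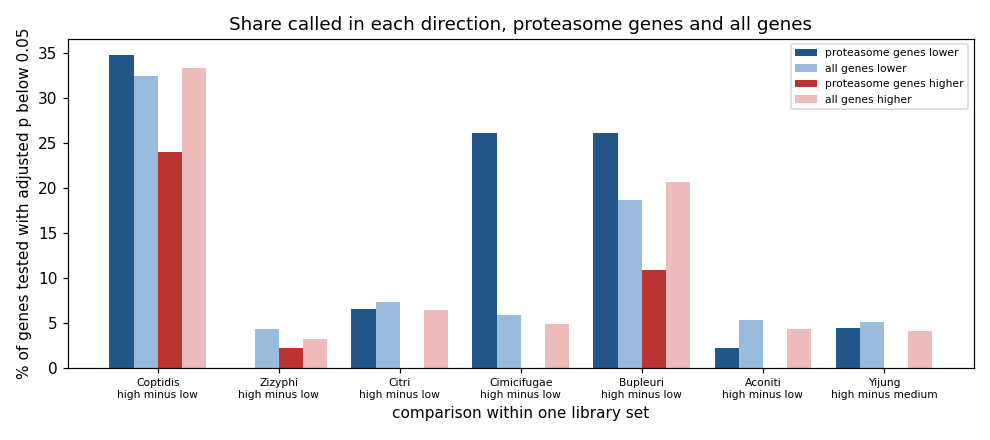
Share of the genes tested that were called higher or lower (vertical axis, %) in each comparison of doses within a library set (horizontal axis), for the 46 proteasome genes and for all 17680 genes. The lower bar of the proteasome genes stands above that of all genes for Cimicifugae (26.1% against 5.81%), Bupleuri (26.1% against 18.6%, but 8.7% against 15.7% without Bupleuri low replicate 3, which is not drawn) and Coptidis (34.8% against 32.4%).

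With Coptidis, proteasome genes moved in both directions at the high dose, also within several of the roles. The members spread from -0.68 to 0.45 on the log2 scale, with 41 of 46 within 0.5 log2 units of no change, and the libraries of the 2 doses did not overlap for 39 genes, 22 of them lower and 17 higher at the high dose (84.8% of the members, where the libraries did not overlap for 81.6% of all genes and 65.6% of all genes were called). The 19S ATPases moved in 1 direction: 5 of 6 were lower, none higher. The constitutive catalytic genes PSMB5, PSMB6 and PSMB7 gave 0 calls by edgeR, and 0 at an unadjusted p under 0.05. Of the 4 activators and 1 inhibitor, 3 were higher (PSME1, PSME4 and PSMF1), PSME3 was lower and PSME2 was not called. The roles were not tested against each other.

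Among the ATPases, which form the unfolding ring, PSMC2 stood at 205 and 193 CPM at the low dose (replicates 2 and 3), at 179 and 180.0 at the medium dose and at 136 and 138 at the high dose. The high-dose libraries lay below all others of the extract, and the log2 difference from low to high was -0.53 ± 0.046 (SE, n = 2 against 2, edgeR adjusted p = 9.86e-14). PSMC3 went from 124 and 123 at the low dose through 115 and 113 to 93.1 and 94.8 at the high dose, a log2 difference of -0.39 ± 0.052 (edgeR adjusted p = 1.31e-08). PSMC6, PSMC5 and PSMC1 were also lower, by log2 differences of -0.33, -0.27 and -0.17, while PSMC4 was at 0.05 with an edgeR adjusted p of 0.326. PSMC1 lost its call without high replicate 3 and without low replicate 3.

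The non-ATPase subunits of the cap moved in both directions, 4 higher and 4 lower of 11. PSMD12, a lid subunit, was at 131 and 140.1 CPM at the low dose, 124 and 116 at the medium dose and 85.99 and 84.4 at the high dose. Its log2 difference of -0.67 ± 0.057 (edgeR adjusted p = 7.13e-14) was the largest fall among these 11 subunits, and the 3 doses did not overlap. PSMD1, the other large scaffold of the base, went from 156 and 162 at the low dose to 106 and 102 at the high dose (-0.61 ± 0.049), and PSMD14, the deubiquitinase of the lid, from 73.8 and 78.5 to 62.5 and 58.9 (-0.32 ± 0.066). PSMD8, a lid subunit, rose instead, with 169.9 and 177 at the low dose, 186 and 188 at the medium dose and 224 and 232 at the high dose. The difference was 0.40 ± 0.043 (edgeR adjusted p = 3.53e-11). PSMD2 rose from 745 and 803 to 880.1 and 872 (0.18 ± 0.041). PSMD7, PSMD3 and PSMD11, at 0.13, 0.11 and -0.11, were called but lost the call in 2 or 3 of the 4 fits without 1 library.

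In the core, PSMA4 (-0.52 ± 0.060) and PSMA3 (-0.39 ± 0.063) of the alpha ring and PSMB2 (-0.32 ± 0.051) of the structural beta subunits were lower at the high dose. PSMA7 was called higher at 0.20, with an edgeR adjusted p of 0.0471, and lost that call whichever of the 4 libraries was left out. PSMB5 was at 108 and 116 at the low dose and 104 and 107 at the high dose, PSMB6 at 124 and 124 against 128 and 130.4, and PSMB7 at 169.7 and 177 against 162 and 174. Their log2 differences were -0.08 ± 0.062, 0.06 ± 0.065 and -0.04 ± 0.062. The inducible counterparts diverged from one another. PSMB9 fell from 15.6 and 15.9 to 12.4 and 10.7 (-0.44 ± 0.086, edgeR adjusted p = 1.64e-05), and PSMB8 rose from 35.5 and 36.3 to 39.9 and 42.3 (0.20 ± 0.069, edgeR adjusted p = 0.0110). PSMB10 stood at 17.2 and 17.5 against 15.3 and 16.1 (-0.14, edgeR adjusted p = 0.236). PSMB8 lost its call without low replicate 2 and without high replicate 3.

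**Figure D2:**
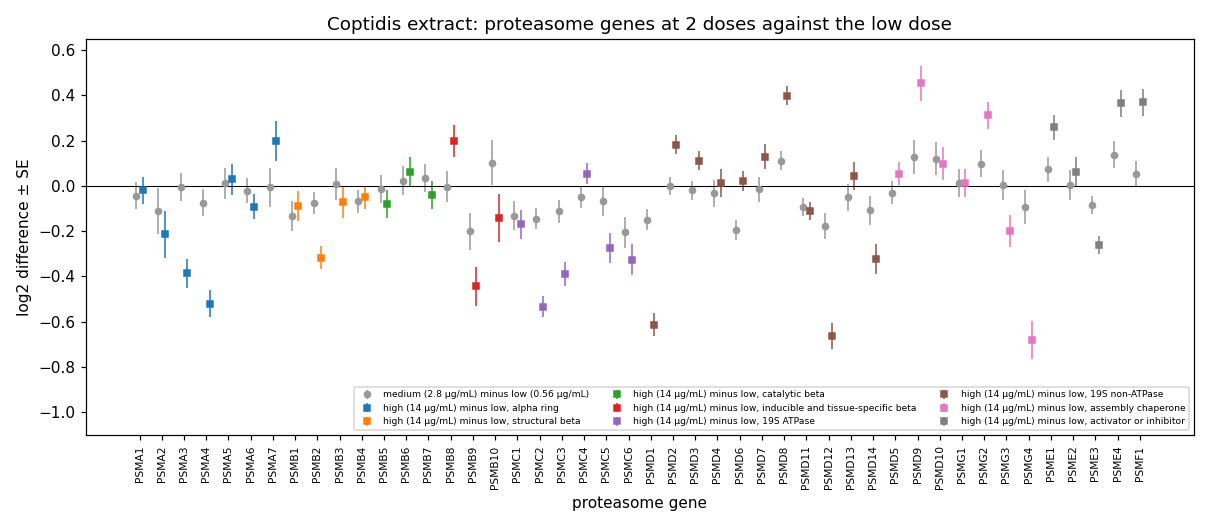
Log2 difference from the Coptidis low dose (vertical axis, ± SE) for the 46 proteasome genes (horizontal axis), for the medium dose in grey circles and the high dose in squares coloured by role. The high-dose squares run from -0.68 (PSMG4) to 0.45 (PSMD9), with 5 of 6 ATPases called lower and the 3 constitutive catalytic genes near 0.

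Assembly chaperones and regulators held the extremes. PSMG4, which helps build the alpha ring, was at 21.5 and 21.2 CPM at the low dose, 19.9 and 20.1 at the medium dose and 13.8 and 12.7 at the high dose, a log2 difference of -0.68 ± 0.084 (edgeR adjusted p = 1.36e-09). PSMD9, a chaperone of the ATPase ring, rose from 27.1 and 29.9 through 31.4 and 30.9 to 38.3 and 39.6, by 0.45 ± 0.077 (edgeR adjusted p = 1.50e-06). The high-dose libraries of both genes stood apart from those of the other doses. PSMG2, the partner of PSMG1 in alpha ring assembly, also rose (0.31 ± 0.060), and PSMG3 fell (-0.20 ± 0.070), a call lost without high or low replicate 2. PSME4, an activator of the core that works without ATP, went from 131 and 135 to 175 and 167 (0.36 ± 0.059). PSMF1, an inhibitor of the core, went from 135 and 121 to 163 and 166 (0.37 ± 0.058). In the interferon-linked activator, PSME1 rose from 96.2 and 97.7 to 114 and 118 (0.26 ± 0.057), whereas its partner PSME2 stood at 138 and 140.4 against 140.5 and 149 (0.06, edgeR adjusted p = 0.428). PSME3, the nuclear activator, was lower at the high dose, with 172 and 169 against 204 and 207 (-0.26 ± 0.040).

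At the medium Coptidis dose, 5 members were lower than at the low dose and 0 higher by edgeR, where 5.89% and 7.68% of all genes were called lower and higher (2 members were higher at an unadjusted p under 0.05, and DESeq2 was not run for the medium dose). These were PSMC6 (-0.21), PSMD6 (-0.19), PSMD12 (-0.18), PSMD1 (-0.15) and PSMC2 (-0.14). Among them PSMD6, a lid subunit, was not called at the high dose, at 0.02 ± 0.044, in a comparison that shares the low-dose libraries.

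The same comparison in the other extract of that library set, Zizyphi, allowed a direct test of the difference. Between the Coptidis and the Zizyphi dose effects, 8 members differed upwards and 14 downwards, against 28.1% and 27.2% of all genes. PSMG4 had the largest gap, -0.94 ± 0.113 (edgeR adjusted p = 1.59e-09), and it stood at 17.9 and 19.4 at the Zizyphi low dose and 21.8 and 22.4 at the high dose. That Zizyphi difference of 0.25 (edgeR adjusted p = 0.0308) was the only member called for Zizyphi and was lost whichever of the 4 libraries was left out. The 5 ATPases lower with Coptidis each differed from Zizyphi as well, from -0.55 for PSMC2 to -0.27 for PSMC1. PSMD12 and PSMD1 differed by -0.72 and -0.71, and PSMD8 and PSMF1 differed upwards by 0.50 and 0.50.

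Genes around the proteasome were described from lists of related genes. Of all genes, 33.2% were called higher and 32.4% lower at the Coptidis high dose, and the lists were not tested against these shares. Of 8 genes that drive or process the transcription of proteasome genes, 7 were higher at the Coptidis high dose and 0 lower, with MAFF at 2.46 ± 0.083, MAFG at 1.78 ± 0.057, NFE2L2 at 0.89 ± 0.046 and NFE2L1 itself at 0.43 ± 0.040. DDI2, the protease that processes NFE2L1, was at 0.17 with an edgeR adjusted p of 0.0609. Of 10 genes for p97, its cofactors and the shuttle factors that bring ubiquitinated proteins, 5 were higher and 2 lower. The shuttles UBQLN4 (0.77) and UBQLN1 (0.70) rose, whereas the segregase p97 itself, VCP (-0.36), and its cofactor NPLOC4 (-0.42) fell. Of 9 genes of heat shock and aggregate handling, 7 were lower, among them HSPA8 (-1.64) and HSPA1A (-2.94), and 2 were higher, SQSTM1 (1.42) and ZFAND2A (1.90). Of 10 further subunits and partners, 3 rose, led by ECPAS (0.69), a proteasome scaffold, and 5 fell, among them SEM1 (-0.35), a small lid subunit, and the assembly factor POMP (-0.23). Of 6 genes for ubiquitin and its activation, 3 rose and 2 fell, UBB (-0.42) and UBA1 (-0.09). Of 8 interferon and antigen processing genes, 5 rose, among them TAP1 (0.56), B2M (0.52) and IRF1 (0.61), and 1 fell, TAPBP (-0.18). The medians of the 6 lists, in this order, were 0.68, 0.16, -0.40, -0.09, 0.10 and 0.37, beside -0.02 over all genes.

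Marker levels moved in those libraries too. The summed level of 8 astrocyte markers was 7997 to 8025 CPM at the Coptidis high dose and 4650 to 4831 at the low dose, nearly all of it VIM, and that of 5 microglia and leukocyte markers was 267 to 279 against 181 to 184, nearly all of it CD68. The summed 4 epithelial markers were at 164 to 167 against 206 to 219. Each sum follows its largest gene and does not show which way the other markers went. Over the 58 libraries SLC1A3 ran from 1.89 to 39.1 CPM, SOX9 from 49.7 to 80.0 and PTPRC from 2.79 to 14.2. MOG was at 0 in all 58 libraries, and the highest level of GFAP in any library was 0.35 CPM, of AIF1 0.047 and of EPCAM 0.13. The part of these shifts in the proteasome values was not tested.

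At the Bupleuri high dose, PSMB9 and PSME2 of the interferon-linked forms of the proteasome were lower than at the low dose, and a few cap subunits were higher. Of the other 3 genes of those forms, PSMB10 and PSME1 were called lower only with Bupleuri low replicate 3 in the fit, and PSMB8 was not called. PSMB9, the inducible replacement of PSMB6, was at 20.1, 19.9 and 20.4 CPM at the low dose (replicates 1 to 3), 15.96, 15.7 and 17.5 at the medium dose and 12.4, 13.7 and 12.5 at the high dose. The 3 doses did not overlap. The log2 difference from low to high was -0.64 ± 0.064 (SE, n = 3 against 3, edgeR adjusted p = 1.81e-11), and -0.63 ± 0.071 (edgeR adjusted p = 8.95e-10) without Bupleuri low replicate 3. From low to medium it was -0.30 ± 0.062 (edgeR adjusted p = 0.0109), the 1 member of 46 called lower in a comparison where 0.0905% of all genes were called lower. Without low replicate 3 that call was lost (-0.28 ± 0.069, edgeR adjusted p = 0.091). By edgeR 0 members were called higher from low to medium, and 0 were higher at an unadjusted p under 0.05.

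PSME2, which pairs with PSME1 in the cap that opens the core, was at 137, 139 and 159.5 CPM at the low dose, 146, 136 and 128 at the medium dose and 115, 122 and 118 at the high dose. All 3 high-dose libraries lay below the others, with a log2 difference of -0.29 ± 0.054 (edgeR adjusted p = 1.85e-05), or -0.22 ± 0.055 (edgeR adjusted p = 0.00158) without low replicate 3. PSMB10, which replaces PSMB7, was at 19.8, 19.3 and 24.4 at the low dose and 16.4, 18.5 and 17.1 at the high dose. Its difference of -0.29 ± 0.079 (edgeR adjusted p = 0.00248) lost its call without low replicate 3, at -0.17 ± 0.081. PSMB8, which replaces PSMB5, stood at 40.3, 39.3 and 45.9 against 35.6, 38.1 and 41.3, with overlapping libraries (-0.13 ± 0.054, edgeR adjusted p = 0.0615). PSME1 was at 99.9, 91.4 and 111 against 89.5, 96.9 and 91.5, also overlapping, and its call (-0.12, edgeR adjusted p = 0.0347) was lost without low replicate 3, at -0.04.

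**Figure D3:**
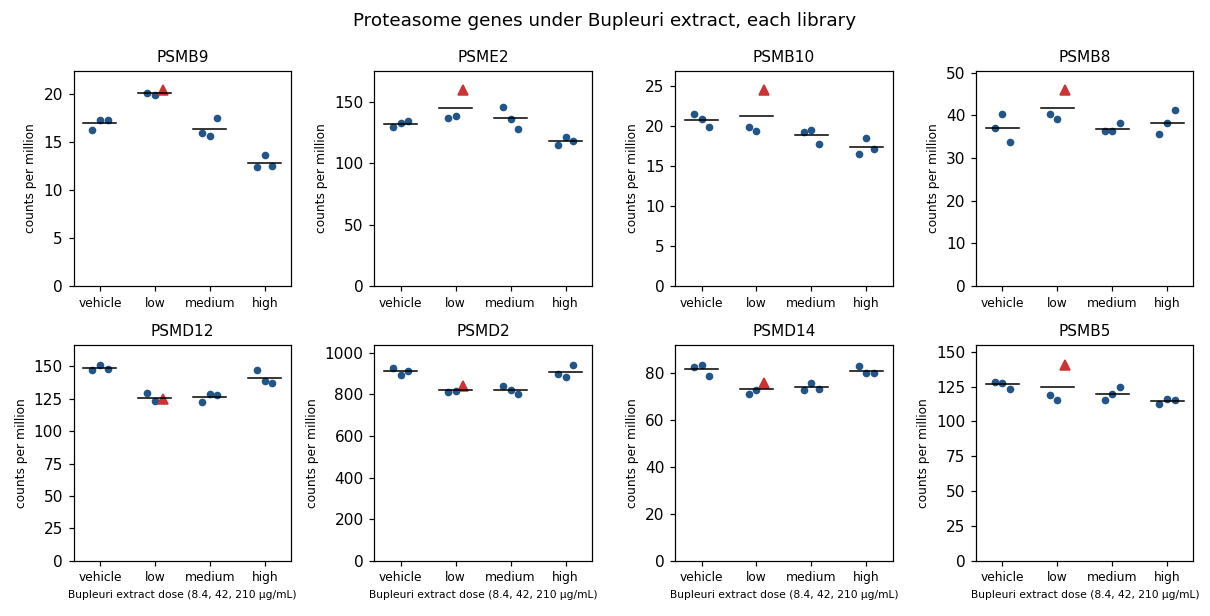
Level of 8 proteasome genes (vertical axis, CPM) in each vehicle and Bupleuri library (horizontal axis, by dose), with the group mean as a bar and Bupleuri low replicate 3 as a red triangle. PSMB9 steps down from about 20 at the low dose to 12.4 to 13.7 at the high dose, while PSMD12, PSMD2 and PSMD14 are higher at the high dose than at the low dose.

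The constitutive catalytic genes depended on that library. PSMB6 was at 131, 119.7 and 150.1 at the low dose and 109, 119 and 119 at the high dose. PSMB5 was at 119, 116 and 140.5 against 112, 116 and 116, and PSMB7 at 161, 184 and 204 against 179, 186 and 182. PSMB6 (-0.21) and PSMB5 (-0.12) were called lower with all libraries and not without low replicate 3, where they were at -0.11 and -0.03. PSMB7 was at -0.00 with an edgeR adjusted p of 0.977. The comparison went from 5 higher and 12 lower to 6 higher and 4 lower when that library was left out, where 33.3% of all genes were called. The 4 lower genes that kept the call in each of the 6 fits without 1 library were PSMB9, PSME2, PSMG3 (-0.23), a chaperone of the alpha ring, and PSMD13 (-0.17), a lid subunit.

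Some cap subunits were higher at the high dose than at the low dose. Of all members 10.9% were called higher, against 20.6% of all genes. The summed non-ATPase cap subunits were at 2138 ± 63.0 CPM (SD) at the low dose and 2260 ± 28.4 at the high dose. In the vehicle, of another library set, they were at 2260 ± 23.4, and PSMD12 was at 147 to 151. PSMD12 was at 129.5, 123 and 125 CPM at the low dose, 123, 128 and 128 at the medium dose and 147, 138 and 137 at the high dose, above both lower doses in every library (0.17 ± 0.045, edgeR adjusted p = 0.00267). PSMD2 was at 809.8, 816 and 842 at the low dose, 839, 820.4 and 802 at the medium dose and 899, 885 and 941 at the high dose (0.15 ± 0.033, edgeR adjusted p = 0.000392). Both kept the call in all 6 fits without 1 library, at 0.16 and 0.16 without low replicate 3. PSMD14 rose from 70.8, 72.5 and 75.7 to 82.7, 79.6 and 80.03 (0.15, edgeR adjusted p = 0.0211), and lost the call without high replicate 1 and without low replicate 1. The activator PSME3 (211, 193 and 209 against 214, 213 and 219) and the chaperone PSMG1 (61.9, 57.03 and 69.5 against 69.8, 67.1 and 70.6) were called at 0.08 and 0.14, each lost in 4 of the 6, although both kept the call without low replicate 3 (0.10 and 0.22).

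The promoters of PSMB9, PSME2, PSMB10 and PSMD12 are shown as examples of genes called with Bupleuri and, for PSMB9 and PSMD12, also with Coptidis. The PSMB10 call rested on Bupleuri low replicate 3. Each is the 250 bases before the RefSeq start (GRCh38.p14), 5′ to 3′ on the gene's own strand, at chr6:32853942-32854191 (plus), chr14:24146611-24146860 (minus), chr16:67936851-67937100 (minus) and chr17:67366578-67366827 (minus). Capitals mark a match on either strand to TGACNNNGC, the core of the antioxidant response element that NFE2L1 and NFE2L2 bind with a small MAF partner, or to GAAA and GAAA spaced by 2 bases, the core of the interferon-stimulated response element.
PSMB9: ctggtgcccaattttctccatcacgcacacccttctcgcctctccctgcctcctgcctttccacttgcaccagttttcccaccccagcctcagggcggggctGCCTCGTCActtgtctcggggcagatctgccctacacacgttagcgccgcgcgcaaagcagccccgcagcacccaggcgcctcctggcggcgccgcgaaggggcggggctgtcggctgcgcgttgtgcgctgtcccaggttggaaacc
PSME2: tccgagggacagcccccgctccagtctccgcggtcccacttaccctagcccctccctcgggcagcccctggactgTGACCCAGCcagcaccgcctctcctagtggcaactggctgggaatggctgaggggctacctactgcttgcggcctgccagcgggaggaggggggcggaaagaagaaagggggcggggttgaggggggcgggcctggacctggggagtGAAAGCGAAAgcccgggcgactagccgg
PSMB10: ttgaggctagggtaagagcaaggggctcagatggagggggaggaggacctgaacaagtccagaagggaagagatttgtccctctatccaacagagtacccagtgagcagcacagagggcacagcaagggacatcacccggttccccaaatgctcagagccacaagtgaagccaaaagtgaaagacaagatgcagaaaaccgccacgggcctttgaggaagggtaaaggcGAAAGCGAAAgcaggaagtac
PSMD12: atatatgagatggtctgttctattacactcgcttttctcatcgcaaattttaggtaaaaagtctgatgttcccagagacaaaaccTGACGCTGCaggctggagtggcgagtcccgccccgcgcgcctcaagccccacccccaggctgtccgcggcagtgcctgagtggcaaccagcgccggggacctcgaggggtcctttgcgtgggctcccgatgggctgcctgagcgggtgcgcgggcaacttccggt

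PSMB9 and PSMD12 held the first motif, beginning 148 and 165 bases before the start, PSMB10 held the second, beginning 21 bases before, and PSME2 held both, 175 and 28 bases before. The motifs did not overlap. RefSeq promoters were matched for 42 of the 48 members, and 11 of these (26.2%) held TGACNNNGC in the 250 bases, against 11% of 27305 promoters. The second motif was in 5 (11.9%), PSMA4, PSMB10, PSMB4, PSME2 and PSMG4, against 3.07%. A match is a run of letters and says nothing of binding. The 11 genes with the first motif did not move 1 way with Coptidis: 5 were higher and 2 lower, from -0.67 to 0.45, with a median of 0.06. Of all genes 33.2% were higher and 32.4% lower with Coptidis. With Bupleuri these 11 genes were 2 higher and 4 lower (all genes 20.6% and 18.6%), with a median of -0.03. Without Bupleuri low replicate 3, only PSMB9 and PSME2 of these 4 were still called lower. The 5 genes with the second motif had 2 called lower and 0 higher in each of the same comparisons, with medians of -0.14 and -0.09. These were PSMA4 and PSMG4 with Coptidis and PSMB10 and PSME2 with Bupleuri. PSMB10 lost its call without Bupleuri low replicate 3. Counts over 5 genes are too few to be set apart from the shares of all genes, and no test compared them.

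Around the Bupleuri changes, 4 of the 8 transcription genes were higher and 0 lower, MAFG at 0.75 ± 0.046, MAFF at 0.71 ± 0.073, DDI2 at 0.37 ± 0.063 and MAFK at 0.29 ± 0.057, with NFE2L1 at -0.04 (edgeR adjusted p = 0.306). Of the 8 interferon and antigen processing genes, 3 were lower, IRF1 (-0.38 ± 0.055), TAP1 (-0.17 ± 0.037) and TAP2 (-0.12), and 2 were higher, among them NLRC5 (0.19). Of the 9 genes of heat shock and aggregate handling, 2 were higher, led by SQSTM1 at 1.84 ± 0.035, and 3 lower, led by HSPB1 at -0.65 ± 0.085. Of the 10 p97 and shuttle genes, 4 were higher, led by UBQLN2 (0.26) and UBQLN1 (0.21), and UFD1 was lower (-0.08). Of the 10 further subunits and partners, 2 were higher, ECPAS (0.22) and USP14 (0.09), and 2 lower, SEM1 (-0.25) and PITHD1 (-0.14). Of the 6 ubiquitin genes, 2 were higher, among them UBA6 (0.20), and UBA1 (-0.15) was lower. The medians of the 6 lists, in this order, were 0.18, -0.05, -0.00482, 0.07, 0.04 and -0.08, with that of all genes near 0. Of all genes, 20.6% were called higher and 18.6% lower, and the lists were not tested against these shares. Without low replicate 3 the transcription list still had 4 higher and 0 lower, the interferon list 2 higher and 4 lower, and the p97 and shuttle list 3 higher and 0 lower, with IRF1 at -0.35 and SQSTM1 at 1.88. In that fit 17.5% of all genes were higher and 15.7% lower. The summed epithelial markers, mostly KRT18, were at 60.2 to 63.6 CPM at the high dose and 231 to 254 at the low dose. The summed microglia and leukocyte markers, mostly CD68, were at 249 to 274 against 172 to 191, with AIF1 at or near 0. These sums do not show which way the smaller markers of the lists went. Whether the marker shifts moved the proteasome values was not tested.

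Bupleuri shared its library set with Aconiti, and the dose effects of the 2 extracts were tested against each other. Of the members, 2 differed upwards and 4 downwards, against 13% and 10.5% of all genes. PSMB9 differed by -0.58 ± 0.094 (edgeR adjusted p = 4.00e-06), with Aconiti libraries at 16.9, 19.9 and 17.4 at the low dose and 17.1 and 17.5 at the high dose. PSME2 differed by -0.31 ± 0.081, PSMG3 by -0.28 and PSMB8 by -0.25, and PSMG1 and PSMD2 differed upwards by 0.25 and 0.18. Without Bupleuri low replicate 3 the counts were 6 upwards and 2 downwards, with PSMB9 at -0.57 and PSME2 at -0.23.

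At the Cimicifugae high dose, members of most roles were slightly lower. The differences were below 0 for 42 of the 46 genes, where 49.9% of all genes were below 0, and the libraries of the high dose lay wholly under those of the low dose for 22 genes and wholly above for 0 (47.8% and 0% of the members, against 13.8% and 12.8% of all genes, of which 10.7% were called). The 12 genes called lower were 4 of the alpha ring, 1 structural and 2 catalytic beta subunits, 2 ATPases, 2 other cap subunits and 1 chaperone, while the inducible subunits and the activators had 0 called. PSMA2, of the alpha ring, had the largest fall, with 119, 113 and 111 CPM at the low dose, 108, 100.1 and 87.6 at the medium dose and 86.97, 93.7 and 99.4 at the high dose (-0.30 ± 0.084, edgeR adjusted p = 0.0163). PSMG1 was at 54.5, 60.2 and 56.6 at the low dose and 49.99, 50.3 and 50.6 at the high dose (-0.18 ± 0.051, edgeR adjusted p = 0.0136). The high and low doses did not overlap for either gene.

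PSMC3 and PSMD2 were the Cimicifugae calls that held in all 6 fits without 1 library. PSMC3 was at 129, 124 and 125 at the low dose and 113, 108 and 113 at the high dose (-0.18 ± 0.042, edgeR adjusted p = 0.00325), and PSMD2 at 769, 751 and 736 against 691, 682 and 672 (-0.14 ± 0.033, edgeR adjusted p = 0.00273). The other 10 lost the call in at least 1 fit, and the count of lower members ranged from 3, without high replicate 2, to 11. PSMB5 was at 121, 118 and 116 against 105, 103 and 112 (-0.15, edgeR adjusted p = 0.0441), and PSMB6 at 127, 126 and 125 against 113, 108 and 119 (-0.16, edgeR adjusted p = 0.0491). Each kept the call in 1 of the 6. PSMB7, at 166, 167 and 162 against 156, 152 and 155, did not pass (-0.10, edgeR adjusted p = 0.222). The medium dose had 1 member lower than the low dose, PSMA3 (-0.21), and 0 higher by edgeR, against 0.215% and 0.17% of all genes (0 higher at an unadjusted p under 0.05).

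For Citri, in the same library set, 3 members were lower at the high dose. PSMD5, a chaperone of the ATPase ring, was at 80.2, 79.5 and 77.8 CPM at the low dose, 81.9, 77.00 and 75.5 at the medium dose and 66.7, 69.98 and 72.7 at the high dose (-0.18 ± 0.042, edgeR adjusted p = 0.00204), a call that held in all 6 fits without 1 library. PSMD2 was at 786, 797 and 785 against 716, 732 and 734 (-0.12 ± 0.033, edgeR adjusted p = 0.0113). PSME3 was at 204, 202 and 198 against 186, 184 and 187 (-0.12 ± 0.032, edgeR adjusted p = 0.0108). For all 3 the high dose lay under the low dose in every library. PSMD2 lost its call without high replicate 1, and PSME3 without low replicate 1 and without high replicate 2. The inducible PSMB9 (15.8, 16.8 and 17.6 against 17.9, 18.4 and 18.95) and PSMB8 (35.6, 36.2 and 39.2 against 40.7, 41.1 and 40.3) were at 0.14 and 0.13 and did not pass, with edgeR adjusted p-values of 0.145 and 0.105.

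Between the Citri and Cimicifugae dose effects, edgeR and DESeq2 each called 0 members, with 6 members above and 0 below at an unadjusted p under 0.05, and with 0.322% and 0.752% of all genes called higher and lower. For PSMA2 the difference between the effects was 0.31 ± 0.119 (edgeR adjusted p = 0.273). The 12 calls of Cimicifugae against the 3 of Citri are therefore not shown to be a difference between the extracts.

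For both Aconiti and Yijung-tang the ATPase gene PSMC3 was called lower. For Aconiti it was at 126, 126 and 129 CPM at the low dose, 128, 131 and 126 at the medium dose and 115 and 108 at the high dose (-0.19 ± 0.047, n = 2 against 3, edgeR adjusted p = 0.00479). The call was lost without high replicate 3. For Yijung-tang PSMC3 was at 126 and 128 at the medium dose and 115 and 111 at the high dose (-0.17 ± 0.051, edgeR adjusted p = 0.0259) and PSMD2 at 765 and 808 against 689.7 and 723 (-0.16 ± 0.041, edgeR adjusted p = 0.00812). PSMC3 was lost whichever of these 4 libraries was left out, and PSMD2 without high replicate 1 and without medium replicate 2. The Yijung-tang difference was below 0 for 41 of 46 members, where 50.5% of all genes were below 0. At the medium dose against the low dose, Zizyphi, Citri and Aconiti had 0 members called in either direction by edgeR, where 0.00566%, 0.00566% and 0.0509% of all genes were called. At an unadjusted p under 0.05 there were 1 higher and 0 lower for Zizyphi, 0 and 7 for Citri, and 1 and 1 for Aconiti.

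**Figure D4:**
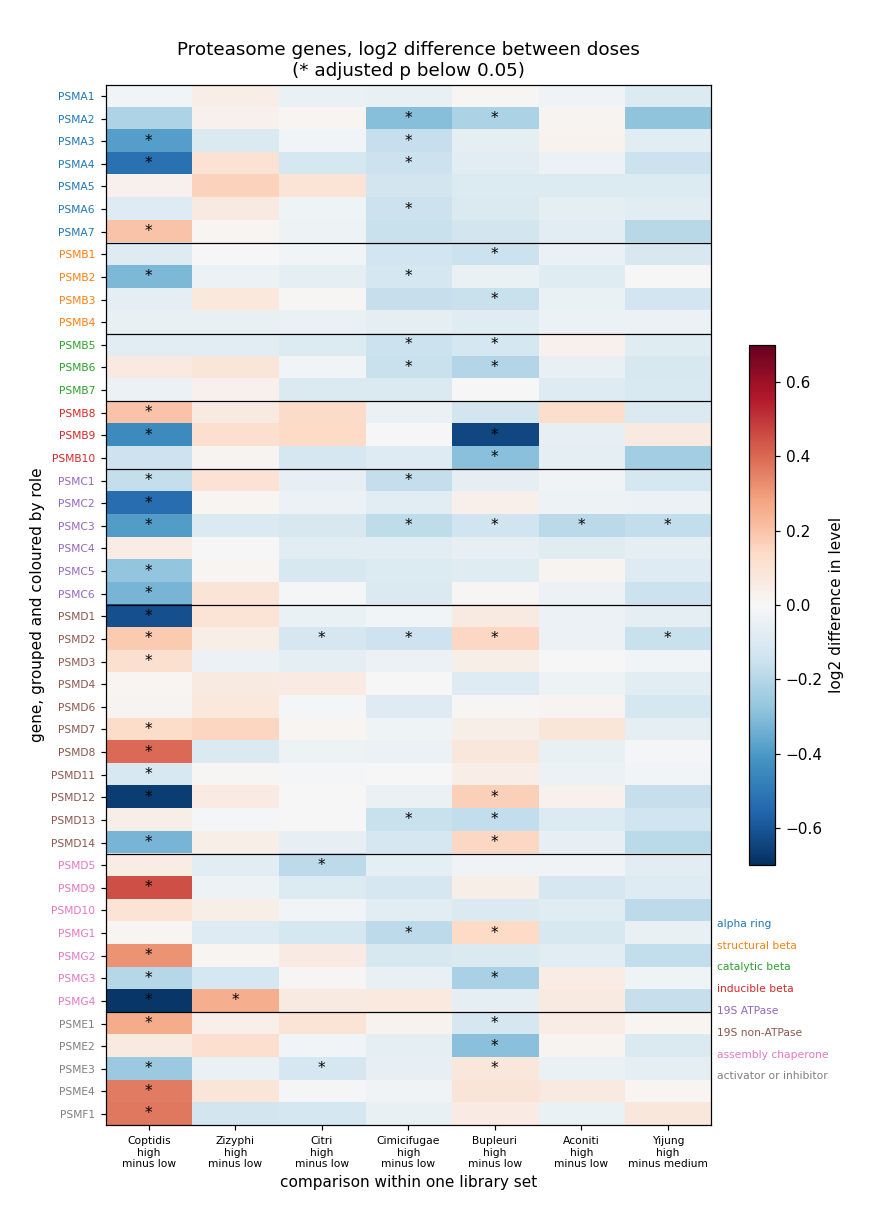
Log2 difference between doses (colour, red higher and blue lower at the high dose) for 46 proteasome genes (rows, grouped and coloured by role) in the 7 comparisons within a library set (columns), with a star where the adjusted p was below 0.05. The Coptidis column holds the strongest colours in both directions, the Bupleuri column has PSMB9 at -0.64, and the Cimicifugae column is pale blue in 42 of 46 rows.

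PSMC3 and PSMD2 can be followed through the sets. From low to high dose PSMC3 was called lower for Coptidis, Cimicifugae, Bupleuri and Aconiti and, from medium to high, for Yijung-tang, while for Citri it was at -0.11 and for Zizyphi at -0.10, neither called. The Bupleuri call (127, 118 and 138 against 111, 116 and 121, with overlap) was lost without low replicate 3, at -0.08. PSMD2 was called lower for Citri, Cimicifugae and Yijung-tang and higher for Coptidis and Bupleuri.

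Against the vehicle, more members were lower than higher for most doses, in comparisons that all use the same 3 vehicle libraries and in which library set and treatment cannot be told apart. At the low, medium and high dose of Cimicifugae 11, 31 and 33 of 46 members were lower, against 12%, 17.5% and 19.2% of all genes. For Citri the counts were 8, 22 and 23, against 9.26%, 10.2% and 17.1%. For Coptidis they were 7, 17 and 22, against 3.94%, 12.3% and 32.6%. For Zizyphi they were 17, 11 and 15, against 7%, 8.11% and 12%, and for Aconiti 12, 13 and 16, against 11.6%, 14.3% and 15%. For Bupleuri they were 6, 13 and 16, against 14.9%, 12.6% and 19.4%, the first of which became 12, against 10.3%, without low replicate 3. For Yijung-tang, at the medium and high dose, they were 6 and 24, against 8.9% and 16.7%. Fewer members were called higher than the vehicle. At the low, medium and high dose they were 0, 2 and 9 for Coptidis, against 3.39%, 13.6% and 34% of all genes, and 6, 0 and 2 for Bupleuri, against 12%, 10.1% and 20.2%. Without Bupleuri low replicate 3 the 6 became 1, against 7.73%, and that gene was PSMB9. For Zizyphi they were 0, 0 and 0 (4.82%, 5.58% and 9.64%), for Citri 0, 0 and 1 (6.82%, 7.61% and 14.3%), for Cimicifugae 1, 0 and 1 (8.78%, 14.3% and 16.5%), for Aconiti 0, 1 and 1 (8.45%, 11.9% and 12.7%) and for Yijung-tang, medium and high, 1 and 1 (6.43% and 14.1%). Where edgeR called 0, an unadjusted p under 0.05 gave 2 at the Coptidis low dose, 0, 1 and 2 for Zizyphi (0 by DESeq2 at the high dose), 1 and 0 for Citri low and medium, 0 for Cimicifugae medium, 4 for Bupleuri medium and 2 for Aconiti low.

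PSMB1, a structural beta subunit, was at 161, 149 and 166 CPM in the vehicle, and its 55 treated libraries ran from 116 to 153 with a median of 127. Of these, 54 lay below every vehicle library. The high-dose differences from the vehicle ran from -0.40 ± 0.055 for Cimicifugae (edgeR adjusted p = 1.13e-07) to -0.30 ± 0.060 for Aconiti (edgeR adjusted p = 0.000187). PSMC6 was at 101, 92.7 and 91.4 in the vehicle and from 64.2 to 90.1 in the treated libraries, all 55 below the vehicle. PSMD2 was at 929, 894 and 912 in the vehicle and from 672 to 941 in the treated libraries, 53 of them below, and the high dose of Bupleuri (-0.01, edgeR adjusted p = 0.914) and of Coptidis (-0.05, edgeR adjusted p = 0.235) did not pass. PSME1 went the other way, at 86.7, 87.4 and 91.2 in the vehicle and from 89.2 to 131 in the treated libraries, 51 of them above every vehicle library. Its high-dose differences ran from 0.07 for Bupleuri (edgeR adjusted p = 0.274) to 0.39 ± 0.052 for Coptidis (edgeR adjusted p = 8.36e-09).

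**Figure D5:**
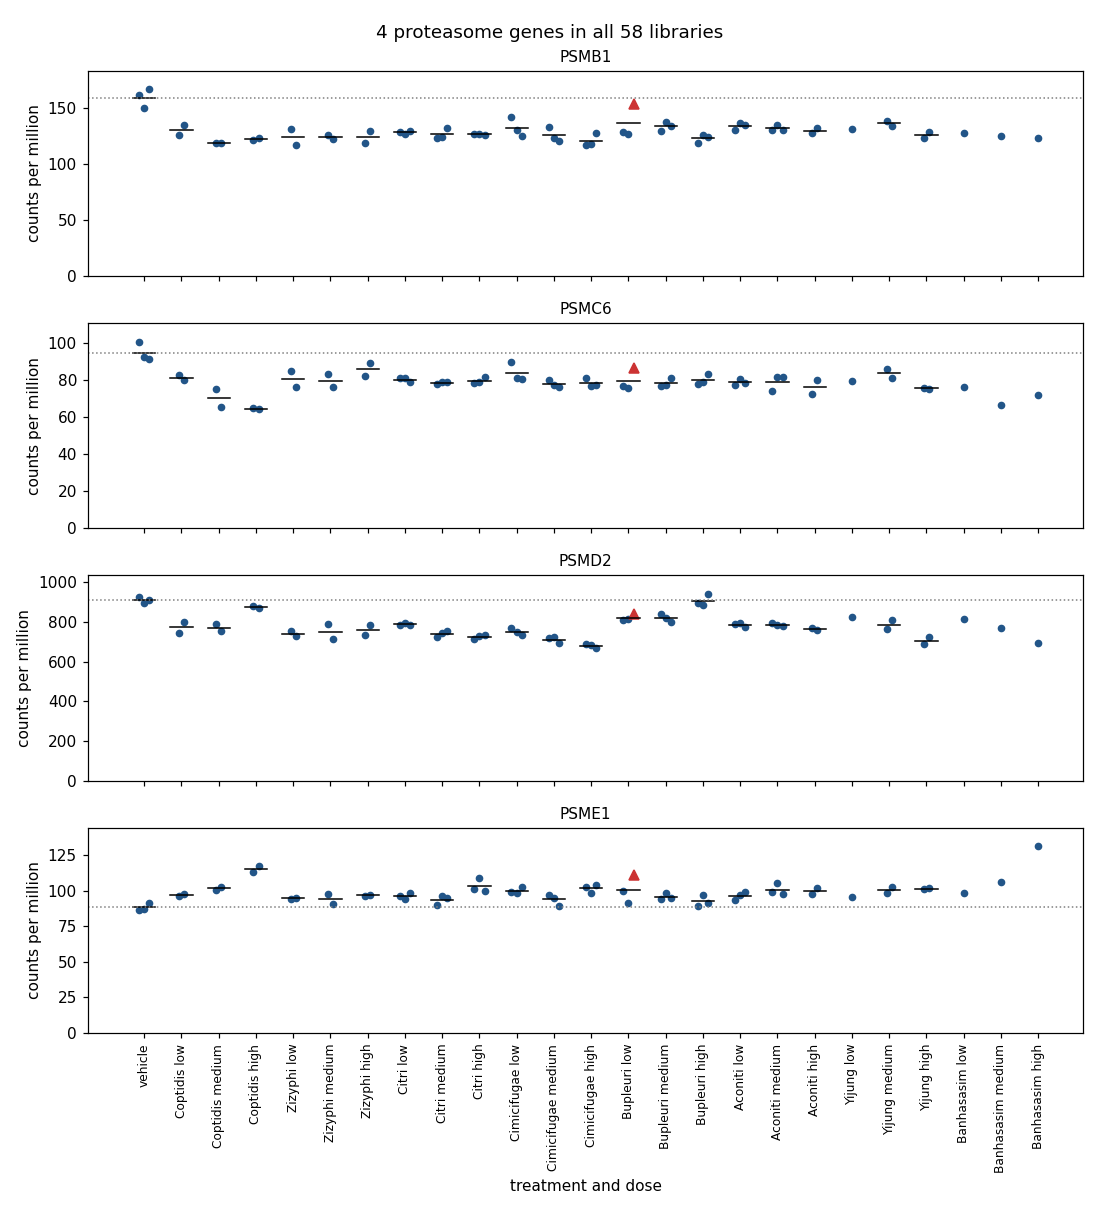
Level of PSMB1, PSMC6, PSMD2 and PSME1 (vertical axes, CPM) in each of the 58 libraries (horizontal axis, by treatment and dose), with group means as bars, the vehicle mean as a dotted line and Bupleuri low replicate 3 as a red triangle. PSMC6 is below every vehicle library in all 55 treated libraries, and PSME1 is above every vehicle library in 51.

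The catalytic genes are given against the vehicle for the high doses. PSMB5, at 128, 128 and 124 CPM in the vehicle, was called lower for Coptidis (-0.25), Zizyphi (-0.30), Citri (-0.18), Cimicifugae (-0.25) and Bupleuri (-0.14). PSMB6, at 129, 125 and 126 CPM in the vehicle, was called lower for Cimicifugae (-0.17) and Bupleuri (-0.13). PSMB7, at 182, 168 and 177 CPM in the vehicle, was called lower for Citri (-0.15) and Cimicifugae (-0.19). PSMB9, PSMB10 and PSMB8 are the inducible forms that take the places of PSMB6, PSMB7 and PSMB5. PSMB9, at 16.3, 17.3 and 17.3 CPM in the vehicle, was called lower for Coptidis (-0.55) and Bupleuri (-0.40). PSMB10, at 21.4, 20.8 and 19.9 CPM in the vehicle, was called lower for Coptidis (-0.40), Zizyphi (-0.38), Citri (-0.26), Cimicifugae (-0.22) and Bupleuri (-0.26). PSMB8, at 37.03, 40.5 and 33.7 CPM in the vehicle, was called higher for Coptidis (0.15). The inducible genes took from 13.9% (Bupleuri high replicate 1) to 17.7% (Banhasasim high) of the summed CPM of the 6 catalytic genes, with a median of 15.2%.

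Banhasasim-tang, with 1 library a dose, has no test. At its high dose 15 members stood above and 23 below all 3 vehicle libraries (32.6% and 50%, against 40.7% and 39.4% of all genes). PSME1 (131 CPM) and PSMD12 (105) were the extremes, at log2 ratios of 0.57 and -0.50 to the vehicle mean. That library was the highest of the 58 for 8 members, PSMA5, PSMB8 (49.2), PSMB10 (25.9), PSMD7, PSME1, PSME2 (161), PSMG1 and PSMG4, whereas PSMB9 was highest in Cimicifugae medium replicate 2. The medium dose had 9 members above and 31 below the vehicle libraries (19.6% and 67.4%, against 35.2% and 35.3% of all genes). The low dose had 6 and 22 (13% and 47.8%, against 31% and 31.3%), and the single Yijung low library 7 and 23 (15.2% and 50%, against 31% and 31.1%).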

How the data were processed

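RNA was sequenced from 60 libraries of SW1783 cells. The authors deposited expected counts for each gene. The submitters' processing notes name RSEM 1.3.3, STAR 2.7.3a, Trim Galore 0.6.5 and FastQC 0.11.9, with hg38. Neither the annotation nor the strand setting is known here. Expected counts were rounded (9.18% of the values were not whole). Symbols were matched for 56558 gene IDs. Genes passing filterByExpr with a minimum count of 10 (17680) were fitted in edgeR 4.0.16 (R 4.3.3) with TMM, 1 mean per group over 21 groups, glmQLFit and glmQLFTest, in 36 comparisons, with Benjamini-Hochberg adjustment over all genes of a comparison. Levels are TMM CPM. The script was tested on simulated data. Alternatives were DESeq2 1.42.0 (test, or size factors alone), no filter, the divergent libraries put back, a replicate block and leaving out each library. Named genes were those with the largest called changes, the catalytic, inducible and activator genes, and others shown for their role. Members and lists were chosen with earlier results of these data known, and some named genes after their values were seen. A few genes of the related lists are counted but not reported by name here.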

Additional observations from a re-analysis of the deposited data

Results flagged for a closer look

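The Coptidis and Zizyphi dose effects, measured in 1 library set, differed for 22 of 46 proteasome genes by a direct test in edgeR, 8 upwards and 14 downwards. That was a smaller share than the 55.3% of all genes that differed. The Bupleuri and Aconiti dose effects differed for 6 of 46, 2 upwards and 4 downwards, again a smaller share than the 23.4% of all genes. Without Bupleuri low replicate 3 they differed for 6 upwards and 2 downwards, where 20.4% of all genes differed.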

How the results depend on the processing

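Putting both divergent libraries back changed the counts most. High against low dose, the higher and lower members became 2 and 5 for Coptidis and 0 and 1 for Bupleuri. There were 0 called higher for Zizyphi and 0 lower for Citri, Cimicifugae, Aconiti and Yijung-tang (high against medium). Fewer of all genes were called too, in either direction 43.4% for Coptidis (65.6% in the main fit) and 0.611% for Cimicifugae (10.7%). For Bupleuri, Citri, Zizyphi, Aconiti and Yijung-tang 13.2%, 1.05%, 0.151%, 8.78% and 0.409% of all genes were called. Against the vehicle the higher and lower members became 3 and 9 for Coptidis. They were 0 and 1 for each of Citri, Cimicifugae and Yijung-tang, and 0 and 0 for Bupleuri. There were 0 lower for Zizyphi and 9 lower for Aconiti. In the order named, 46.7%, 4.56%, 6.98%, 4.32%, 13.9%, 1.55% and 30.1% of all genes were called in either direction. Coptidis against Zizyphi gave 1 and 3, and Bupleuri against Aconiti 0 and 1. Of all genes 28.6% and 9.64% differed there, against 55.3% and 23.4% in the main fit. PSMC3 turned direction for Aconiti, to 0.093 (edgeR adjusted p = 0.664) against the low dose and 0.10 (0.584) against the vehicle. The cause was not tested. With the DESeq2 test Zizyphi had 0 higher, Yijung-tang 5 lower and Bupleuri against Aconiti 5 higher. Of all genes 9.37%, 11.6% and 25.1% were called in either direction. With DESeq2 size factors Aconiti against the vehicle had 2 higher and Bupleuri against Aconiti 5 (27.6% and 23.4% of all genes in either direction). Without the filter Zizyphi had 0 higher, Bupleuri 3 higher, Zizyphi against the vehicle 1 higher and Citri against Cimicifugae 1 higher. In either direction 3.38%, 18.2%, 9.43% and 0.916% of all genes were called.

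Leaving out 1 library at a time, the higher members ranged over 7 to 9 for Coptidis, 0 to 0 for Zizyphi and 2 to 6 for Bupleuri, and the lower ones over 0 to 1 for Zizyphi, 3 to 11 for Cimicifugae, 4 to 16 for Bupleuri, 0 to 1 for Aconiti and 0 to 2 for Yijung-tang. Against the vehicle the higher members ranged over 4 to 7 for Coptidis, 1 to 2 for Citri and 1 to 2 for Aconiti, and the lower ones over 7 to 12 for Zizyphi, 10 to 16 for Bupleuri, 8 to 13 for Aconiti and 13 to 22 for Yijung-tang. Coptidis against Zizyphi had 5 to 7 higher, and Bupleuri against Aconiti 1 to 6 higher and 2 to 7 lower. The share of all genes called fell as well whenever 1 library was left out, between doses and against the vehicle. Bupleuri high against low was the exception, at 33.3% to 39.7% of all genes. For Cimicifugae high against low the share was 7.06% to 9.68%, against 10.7% in the main fit. Without Bupleuri low replicate 3, chosen after seeing the data, its low dose against the vehicle had 1 member higher and 12 lower (all genes 7.73% and 10.3%). The medium against the low dose then had 0 lower (0.0509%). A lone library left in a group is assumed to vary like the other groups.

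Same-numbered libraries of a set had deviations correlated from -0.33 to 0.26, -0.02 to 0.50, -0.26 to 0.21 and at 0.22 in the 4 sets. Their medians were 0.02, 0.17, 0.05 and 0.22. Libraries of different numbers had medians of -0.02, -0.09, -0.03 and -0.22. Deviations were taken from group means, so these values largely follow from the first by arithmetic and are no separate comparison. In the set of Citri and Cimicifugae, same-numbered libraries tended to deviate together, with the median of 0.17. The main fit did not take the numbers as pairing. With a replicate block Citri had 1 member higher, and the other counts of members stayed within 1.5 times. Of the 45 replicate pairs 0 were identical. Depth limits the low genes most: PSMB9, PSMB10 and PSMG4 lie near 20 CPM.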

Other observations

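The 2 libraries left out had proteasome levels far from those of their groups. Aconiti high replicate 1 differed from its group mates by log2 ratios from -3.84 for PSMA4 to 0.82 for PSMB6, with 34 of the 46 genes beyond 0.5 in either direction. Yijung low replicate 1 stood above its group mate with a median of 1.16, from -0.82 for PSMD5 to 2.17 for PSMA7, and 36 genes lay beyond 0.5.

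Across the 46 genes, the log2 differences between doses were related most closely between Cimicifugae and Yijung-tang (Pearson r = 0.52, Spearman rho = 0.51), which share no libraries. Citri and Zizyphi were nearly as close (r = 0.51, rho = 0.49). Coptidis and Cimicifugae had r = -0.01 and rho = 0.10, and the lowest pair, Bupleuri and Citri, had r = -0.42 and rho = -0.37. Genes are not independent replicates, and these values describe the libraries only.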
